A study of Mus musculus with 6 samples.

Results

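The genes described here are those of NF-kB signalling: the transcription factor's subunits, the kinases that release it, the inhibitors and feedback proteins that restrain it, and a set of genes it induces. They were chosen by gene symbol from a list of 36, and a gene was measured where a probe set was annotated to that symbol and no other. Of the 36, 33 were measured among 22180 genes in all, each by a single probe set: 9 of 11 subunits and kinases, 16 of 17 inhibitors and feedback genes, and 8 of 8 effector targets. The subunit gene Nfkb1, the kinase gene Chuk and the adaptor gene Traf3 were not analysed here. Assigning Traf1, Traf2, Birc2, Birc3 and Malt1 to the feedback class, and Map3k8 and Map3k14 to the kinases, was a choice made for this description.

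The study used Raw 264.7 cells, an established mouse monocyte and macrophage line transformed by Abelson virus, grown with 10% fetal bovine serum. After starvation all cells were kept in medium with 2% serum, and they received either PBS, the control, or the cytokine IL-33 at 50 ng/ml. Total RNA was hybridised to 6 whole-transcript arrays, 3 per group. The sources used here do not give the time of treatment, and all arrays come from 1 cell line. The labels do not say that the samples of a group were separate cultures, so the spread behind each p-value may be technical. Groups follow the sample titles. The descriptions also carry array names, and these oppose the titles: IL appears in the names of arrays titled PBS, and P in those titled IL-33. If the titles were exchanged, each direction below would turn.

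NF-kB dimers are held in the cytoplasm by inhibitor proteins of the IkB family. Receptors of the IL-1 family, to which the IL-33 receptor belongs, signal through adaptors and ubiquitin ligases to the IkB kinase complex, which marks the inhibitors for destruction and lets the dimers reach DNA. Dimers then induce their own inhibitors, among them the IkB proteins and the ubiquitin-editing enzyme A20, the product of Tnfaip3, so that in macrophages the response to a stimulus is usually brief and a transcript level depends on the time after it. A second route, controlled by the kinase NIK, the product of Map3k14, and by TRAF and cIAP proteins that keep NIK low, processes the precursor encoded by Nfkb2.

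The DNA element that these dimers bind, the kB motif, stood in the promoter windows of several members, and 6 windows are printed. They include those of Nfkbia, Tnip1, Rel and Nfkb2, none with an unadjusted p under 0.05 (limma). The others are those of Tnfaip3, the member with the largest difference, and Gadd45b, a member without a match. Each window is the 250 bases before an annotated start of the gene, from RefSeq on GRCm38.p6, 5′ to 3′ on the strand of the gene. Capitals mark matches to the NF-kB consensus motif, searched on both strands with overlapping matches joined.
Tnfaip3, chr10:19015411-19015660 (- strand): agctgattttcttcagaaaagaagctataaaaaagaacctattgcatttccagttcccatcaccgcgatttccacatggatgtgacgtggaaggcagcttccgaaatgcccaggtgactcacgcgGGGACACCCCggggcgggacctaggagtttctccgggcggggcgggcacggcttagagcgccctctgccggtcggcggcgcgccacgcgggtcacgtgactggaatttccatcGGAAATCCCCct
Nfkbia, chr12:55492648-55492897 (- strand): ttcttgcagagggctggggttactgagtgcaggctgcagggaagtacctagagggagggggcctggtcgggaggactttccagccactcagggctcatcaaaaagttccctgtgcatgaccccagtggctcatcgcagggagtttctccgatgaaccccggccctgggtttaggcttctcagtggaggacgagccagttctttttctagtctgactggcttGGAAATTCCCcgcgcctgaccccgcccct
Tnip1, chr11:54962941-54963190 (- strand): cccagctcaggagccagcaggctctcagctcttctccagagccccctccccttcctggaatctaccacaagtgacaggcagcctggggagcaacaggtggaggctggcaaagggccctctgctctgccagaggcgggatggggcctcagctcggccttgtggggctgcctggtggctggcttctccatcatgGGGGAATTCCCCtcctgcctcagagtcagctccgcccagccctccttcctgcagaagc
Rel, chr11:23770970-23771219 (- strand): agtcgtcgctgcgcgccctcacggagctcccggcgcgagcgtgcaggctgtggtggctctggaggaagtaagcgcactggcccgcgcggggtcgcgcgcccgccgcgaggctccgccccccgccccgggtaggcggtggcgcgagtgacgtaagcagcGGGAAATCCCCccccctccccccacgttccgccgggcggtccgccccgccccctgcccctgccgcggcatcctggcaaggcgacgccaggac
Nfkb2, chr19:46304487-46304736 (+ strand): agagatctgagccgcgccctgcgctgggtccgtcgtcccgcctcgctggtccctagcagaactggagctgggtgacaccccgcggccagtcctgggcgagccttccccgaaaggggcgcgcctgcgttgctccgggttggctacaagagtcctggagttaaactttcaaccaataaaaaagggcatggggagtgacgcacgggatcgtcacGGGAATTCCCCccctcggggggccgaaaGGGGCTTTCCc
Gadd45b, chr10:80929841-80930090 (+ strand): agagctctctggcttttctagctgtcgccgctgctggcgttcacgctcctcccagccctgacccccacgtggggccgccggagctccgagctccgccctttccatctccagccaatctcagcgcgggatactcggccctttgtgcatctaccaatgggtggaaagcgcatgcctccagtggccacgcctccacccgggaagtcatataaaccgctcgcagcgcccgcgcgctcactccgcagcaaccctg

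Of the 36 listed genes, 28 had a promoter window and 12 of these, 42.9%, held the motif in at least 1 window. Over all 27025 genes with a window the share was 8.23%. The list includes genes known as NF-kB targets, so the 2 shares are a description. In the printed window of Tnfaip3 the matches GGGACACCCC and GGAAATCCCC began 125 and 12 bases before the start. The window of another annotated start of Tnfaip3 held no match. The Tnip1 window held GGGGAATTCCCC, in which matches on both strands overlap. The single match of Nfkbia, GGAAATTCCC, began 29 bases before the start, and that of Rel, GGGAAATCCCC, 92 bases before it. Nfkb2 held GGGAATTCCCC and GGGGCTTTCC near the first of its 3 annotated starts, and the windows of its other starts held 1 match each. A match is a run of letters and not a shown binding site.

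The arrays were alike in scale, with medians between 5.31 and 5.36 on the log2 scale, and across genes they correlated at r = 0.9972 to 0.998 within groups and 0.9967 to 0.9971 between groups. Of the 10 macrophage markers 9, all but Mrc1, lay at or above the median level of all genes, against 3 of 35 markers of lymphocytes, mast cells, fibroblasts and endothelial or epithelial cells. The mean log2 level of the 10 was 10.72 to 10.79 in the PBS arrays and 10.68 to 10.71 in the IL-33 arrays. Of the 10, 2 had an adjusted p under 0.05, where 0.591% of all genes did, and are named after their values were seen: Cd33, a sialic acid binding receptor, fell (difference of -0.49, adjusted p of 0.0358, limma) and Fcgr1, the high-affinity IgG receptor, rose (0.49, adjusted p of 0.0448). Both calls were lost over all probe sets and with the replicate number as a block, at adjusted p of 0.101 to 0.18 (limma). Without any 1 array Fcgr1 did not pass, and Cd33 passed only without IL-33 replicate 1. In those fits the difference ran from 0.443 to 0.542 for Fcgr1 and from -0.546 to -0.447 for Cd33. Centring on the 75th percentile put Fcgr1 at an adjusted p of 0.054 (limma). Adgre1, an adhesion receptor of mature macrophages, had a difference of -0.29 at an unadjusted p of 0.00226 (limma) and did not pass. The part of these 3 genes in the members' differences was not tested. None of the 35 markers of other cell types reached an unadjusted p under 0.05 (limma), and their mean log2 level was 4.68 to 4.71 in the PBS arrays and 4.61 to 4.7 in the IL-33 arrays. Precision is limited by the number of arrays. A log2 difference had a median SE of 0.073 over all genes and 0.059 over the 33 members.

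The comparison of the 3 IL-33 arrays with the 3 PBS arrays asked whether IL-33 altered the level of these transcripts. Most differences were below 1.2-fold. Of 33 members 5 differed by more than 1.2-fold, where 4.91% of all genes did: Tnfaip3, Gadd45b, Malt1 and Nos2 had lower values in the IL-33 arrays and Bcl3 higher. Past 1.5-fold lay only Tnfaip3, where 0.406% of all genes did. Among the members with higher values in the IL-33 arrays, the nuclear IkB protein genes Bcl3 and Nfkbiz, the kinase gene Ikbke and the growth regulator gene Slfn2 had log2 differences of 0.19 to 0.29. The transcripts of the main subunits and of the inhibitor Nfkbia lay within 0.16 of the PBS mean. In RNA from whole cultures, fewer expressing cells and less RNA per cell cannot be told apart.

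No member had an adjusted p under 0.05 by limma (Benjamini-Hochberg over all 22180 genes), where 0.591% of all genes did, 131 in number. The fits without PBS replicates 1, 2 and 3 called 19, 36 and 16 genes, and those without IL-33 replicates 1, 2 and 3 called 83, 15 and 19, with no member among them in any of the 6. At an unadjusted p under 0.05, 11 of 33 members passed (33.3%), where 13.2% of all genes did. The 5 with higher values stand beside 6.42% of all genes, and the 6 with lower values beside 6.74%. The fits without 1 array gave 9 to 11 such members, beside 9.96% to 13.3% of all genes. All 33 members had a mean at or above the median of all genes, and among genes at or above it the share was 17.8%. The 2 groups' values were fully separate in 15 members (45.5%), of which 6 were higher and 9 lower in the IL-33 arrays. That was so for 20.3% of all genes and for 29.9% of those at or above the median mean. The members were chosen with earlier results of these data known, so these shares are a description.

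Each class held members on both sides of 0. The median log2 difference was 0.004 for subunits and kinases, with 5 members above 0 and 4 below. It was -0.012 for inhibitors and feedback genes, with 8 above and 8 below, and -0.012 for effector targets, with 4 above and 4 below. Over all genes it was -0.005. The sign of the subunit and kinase median and of the effector median rested on single arrays: the subunit and kinase median was -0.006 without PBS replicate 2, and the effector median turned to 0.004 when PBS replicate 3 was left out and to 0.014 when IL-33 replicate 2 was. The median size of a difference, whatever its sign, was 0.131 for subunits and kinases, 0.065 for inhibitors and feedback genes and 0.087 for effector targets, beside 0.073 over all genes.

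**Figure D1:**
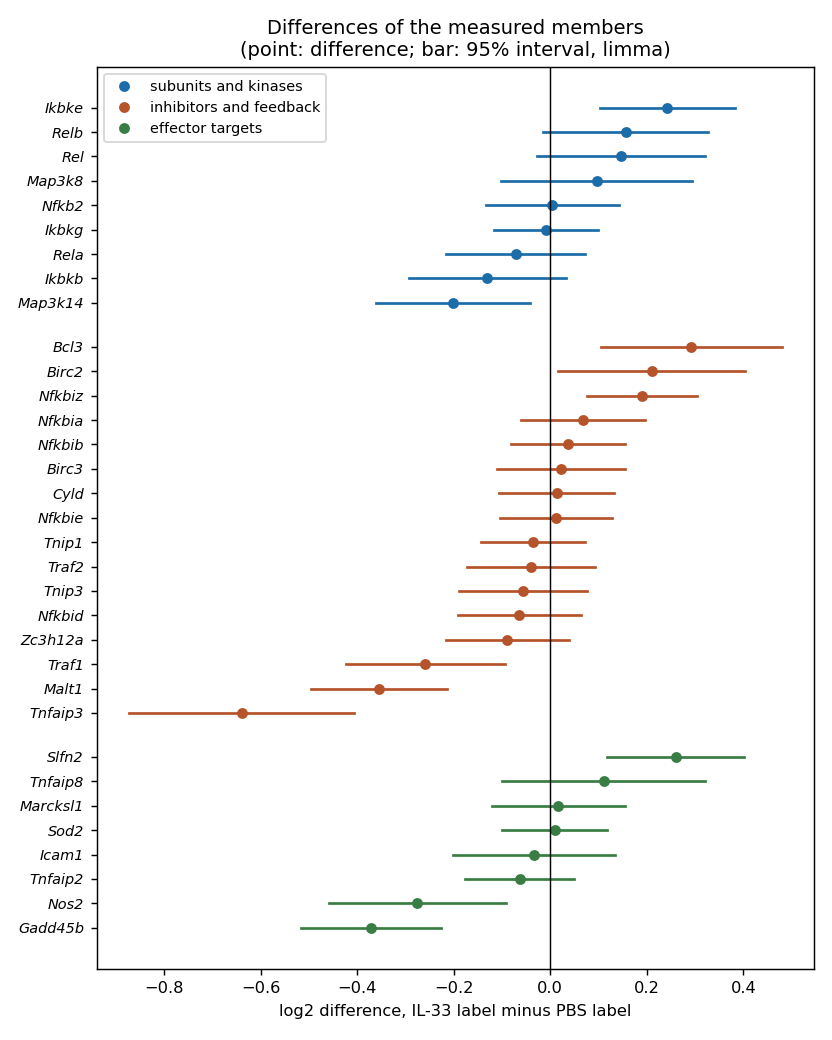
Log2 difference (IL-33 label minus PBS label) of the 33 measured members by class, with points for the difference and bars for its unadjusted 95% interval (limma). Tnfaip3 stands lowest at -0.64, Bcl3 highest at 0.29, and each class holds members on both sides of 0.

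The unadjusted 95% interval of the difference lay within 1.2-fold in both directions for 17 of 33 members and within 1.5-fold for 32, the exception being Tnfaip3. Over all 22180 genes it did so for 11124 and 21443. By class, the interval lay within 1.2-fold for 3 of 9 subunits and kinases, 10 of 16 inhibitors and feedback genes and 4 of 8 effector targets. Array values can compress differences at the ends of the scale, so these bounds hold for the deposited values and not for transcript numbers.

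Among the DNA-binding subunits, none of the 4 measured reached an unadjusted p under 0.05. Rela, which encodes the main activating subunit, had log2 values of 11.07, 10.98 and 11.09 in the PBS arrays and 11.05, 10.91 and 10.96 in the IL-33 arrays. The groups overlapped, with the highest IL-33 value, that of replicate 1, between the PBS values. Its difference was -0.07 ± 0.06 (log2, SE), with an interval of the ratio from 0.861 to 1.051. Rel, the subunit c-Rel of lymphoid and myeloid cells, differed by 0.15 ± 0.07 (log2, SE), and its groups were separate by only 0.01. Relb, the partner in the second route, differed by 0.16 ± 0.07 (log2, SE) with overlapping groups. Nfkb2 differed by 0.00 ± 0.06 (log2, SE), and its values spread from 8.77 to 8.94 in the PBS arrays and only from 8.85 to 8.87 in the IL-33 arrays. Adjusted p for Rela, Rel, Relb and Nfkb2 was 0.688, 0.454, 0.419 and 0.988 (limma).

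Of the 5 measured kinase genes, 2 reached an unadjusted p under 0.05, in opposite directions, where 13.2% of all genes and 17.8% of those at or above the median mean did. Ikbke, which encodes a kinase of the IKK-related family that acts in both interferon and NF-kB signalling, had log2 values of 10.39, 10.41 and 10.40 in the PBS arrays and 10.55, 10.72 and 10.67 in the IL-33 arrays. The PBS values were nearly the same, and each IL-33 value lay above them by at least 0.135. The difference was 0.24 ± 0.06 (log2, SE), a ratio of 1.18, with an adjusted p of 0.155 (limma). Map3k14, the gene of NIK, had values of 6.29, 6.31 and 6.23 in the PBS arrays against 6.18, 5.97 and 6.07 in the IL-33 arrays. IL-33 replicate 1 was the nearest to the PBS values, 0.049 below the lowest of them. Its difference was -0.20 ± 0.07 (log2, SE), with an adjusted p of 0.271 (limma).

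Ikbkb, the catalytic IkB kinase of the first route, had log2 values of 9.30, 9.10 and 9.20 in the PBS arrays and 9.15, 9.03 and 9.04 in the IL-33 arrays. The groups overlapped through PBS replicate 2 and IL-33 replicate 1, and the difference was -0.13 ± 0.07 (log2, SE) with an adjusted p of 0.477 (limma). Ikbkg, the regulatory subunit NEMO, was the steadiest kinase gene, with all 6 values between 8.78 and 8.81 and a ratio of 0.994 with an interval from 0.922 to 1.07. Map3k8, the kinase Tpl2 that links the pathway to ERK signalling, differed by 0.10 ± 0.08 (log2, SE), with overlapping groups.

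The IkB family showed a split between its cytoplasmic inhibitors and 2 of its nuclear members, as values only, since no test of that split was made. Nfkbia, the classical inhibitor IkB alpha, had log2 values of 10.55, 10.54 and 10.44 in the PBS arrays and 10.60, 10.53 and 10.60 in the IL-33 arrays. The groups overlapped, and the ratio was 1.048 with an interval from 0.958 to 1.145. Nfkbib and Nfkbie, the inhibitors IkB beta and epsilon, had ratios of 1.026 and 1.008, with intervals from 0.945 to 1.114 and from 0.93 to 1.093. Each of these intervals lay within 1.2-fold in both directions. Adjusted p for Nfkbia, Nfkbib and Nfkbie was 0.673, 0.811 and 0.948 (limma).

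Nfkbiz, the nuclear protein IkB zeta that works as a coactivator at secondary response genes, had log2 values of 9.63, 9.64 and 9.70 in the PBS arrays and 9.84 in each of the 3 IL-33 arrays. The IL-33 values had an SD of 0.0022, and the lowest of them lay 0.142 above the highest PBS value. The difference was 0.19 ± 0.05 (log2, SE), a ratio of 1.14, with an adjusted p of 0.167 (limma). Bcl3, a nuclear IkB protein that partners homodimers on DNA, had values of 8.82, 9.02 and 9.05 in the PBS arrays against 9.25, 9.18 and 9.34 in the IL-33 arrays. PBS replicate 1 was the lowest of its group, and no values overlapped. The difference was 0.29 ± 0.08 (log2, SE), a ratio of 1.22, with an adjusted p of 0.187 (limma). Nfkbid, the third nuclear member, differed by -0.06 ± 0.05 (log2, SE), and its groups overlapped.

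Tnfaip3 had the largest difference of all members. A20, its product, removes and edits ubiquitin chains on adaptors of the pathway. Its log2 values were 8.56, 8.31 and 8.58 in the PBS arrays and 7.99, 7.80 and 7.74 in the IL-33 arrays. Every IL-33 value lay below every PBS value, by at least 0.318, with PBS replicate 2 and IL-33 replicate 1 closest to each other. The difference was -0.64 ± 0.10 (log2, SE), a level 1.56-fold lower, and limma gave an adjusted p of 0.0523. The gene ranked 142 by p among 22180. The adjusted p lay between 0.00102 and 0.212 over 15 alternatives and under 0.05 in 6 of them, while the difference lay between -0.73 and -0.59.

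The other feedback genes of this kind differed by less. Tnip1 and Tnip3, A20-binding proteins that assist it, had ratios of 0.976 and 0.962, with intervals from 0.906 to 1.051 and from 0.878 to 1.054. Cyld, a deubiquitinase that acts on the same chains, had a ratio of 1.009 with an interval from 0.93 to 1.096. Zc3h12a, the ribonuclease Regnase-1 that degrades inflammatory mRNAs, had a ratio of 0.94. The groups did not overlap for Tnip1 and Zc3h12a, although their differences of -0.04 and -0.09 (log2) were small. By limma the 4 genes had adjusted p of 0.541 to 0.94.

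Among the TRAF, cIAP and MALT1 genes, 3 of 5 measured reached an unadjusted p under 0.05, where 13.2% of all genes and 17.8% of those at or above the median mean did. Malt1, the paracaspase that cleaves A20, CYLD and Regnase-1, had log2 values of 9.20, 9.14 and 9.27 in the PBS arrays and 8.87, 8.78 and 8.91 in the IL-33 arrays. The groups lay 0.236 apart, and the range within each was smaller than that gap. The difference was -0.35 ± 0.06 (log2, SE), a level 1.28-fold lower, at an adjusted p of 0.0651 (limma). Traf1, an adaptor that NF-kB induces, had values of 8.03, 7.99 and 8.12 in the PBS arrays against 7.88, 7.81 and 7.67 in the IL-33 arrays. The groups were 0.112 apart. The difference was -0.26 ± 0.07 (log2, SE), with an adjusted p of 0.187 (limma).

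Birc2, which encodes cIAP1, an E3 ubiquitin ligase, had log2 values of 6.52, 6.66 and 6.35 in the PBS arrays and 6.71, 6.70 and 6.74 in the IL-33 arrays. The PBS values were spread, with an SD of 0.156 against 0.017, and PBS replicate 2 came within 0.043 of the IL-33 values. The difference was 0.21 ± 0.08 (log2, SE), with an adjusted p of 0.343 (limma). Birc3, the paralogue cIAP2 and a known NF-kB target, had a ratio of 1.015, and the adaptor Traf2 a ratio of 0.973, both with overlapping groups. Their intervals ran from 0.926 to 1.113 and from 0.887 to 1.066.

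Of the effector targets, Gadd45b, a stress sensor that restrains JNK signalling, had log2 values of 10.66, 10.65 and 10.61 in the PBS arrays and 10.30, 10.34 and 10.17 in the IL-33 arrays. All PBS values lay at least 0.271 above all IL-33 values. The difference was -0.37 ± 0.06 (log2, SE), a level 1.29-fold lower, at an adjusted p of 0.0618 (limma). Nos2, the inducible nitric oxide synthase of activated macrophages, had values of 12.02, 11.83 and 12.02 in the PBS arrays against 11.78, 11.60 and 11.67 in the IL-33 arrays. PBS replicate 2 lay 0.047 above the highest IL-33 value. The difference was -0.28 ± 0.08 (log2, SE), with an adjusted p of 0.202 (limma).

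Slfn2, a schlafen protein that controls quiescence and growth of lymphoid and myeloid cells, ran the other way, with log2 values of 11.22, 11.35 and 11.23 in the PBS arrays and 11.59, 11.53 and 11.47 in the IL-33 arrays. The groups lay 0.121 apart. The difference was 0.26 ± 0.06 (log2, SE), with an adjusted p of 0.136 (limma). The other effectors had ratios nearer to 1. Icam1, the adhesion ligand of leukocyte integrins, had a ratio of 0.977, and Sod2, the mitochondrial superoxide dismutase, a ratio of 1.006. Their intervals ran from 0.869 to 1.098 and from 0.933 to 1.085. Marcksl1, an actin and calmodulin binding protein, had a ratio of 1.012, and the TNF-induced genes Tnfaip2 and Tnfaip8 had ratios of 0.957 and 1.08. Tnfaip2 had groups that did not overlap at a difference of -0.06 ± 0.05 (log2, SE).

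**Figure D2:**
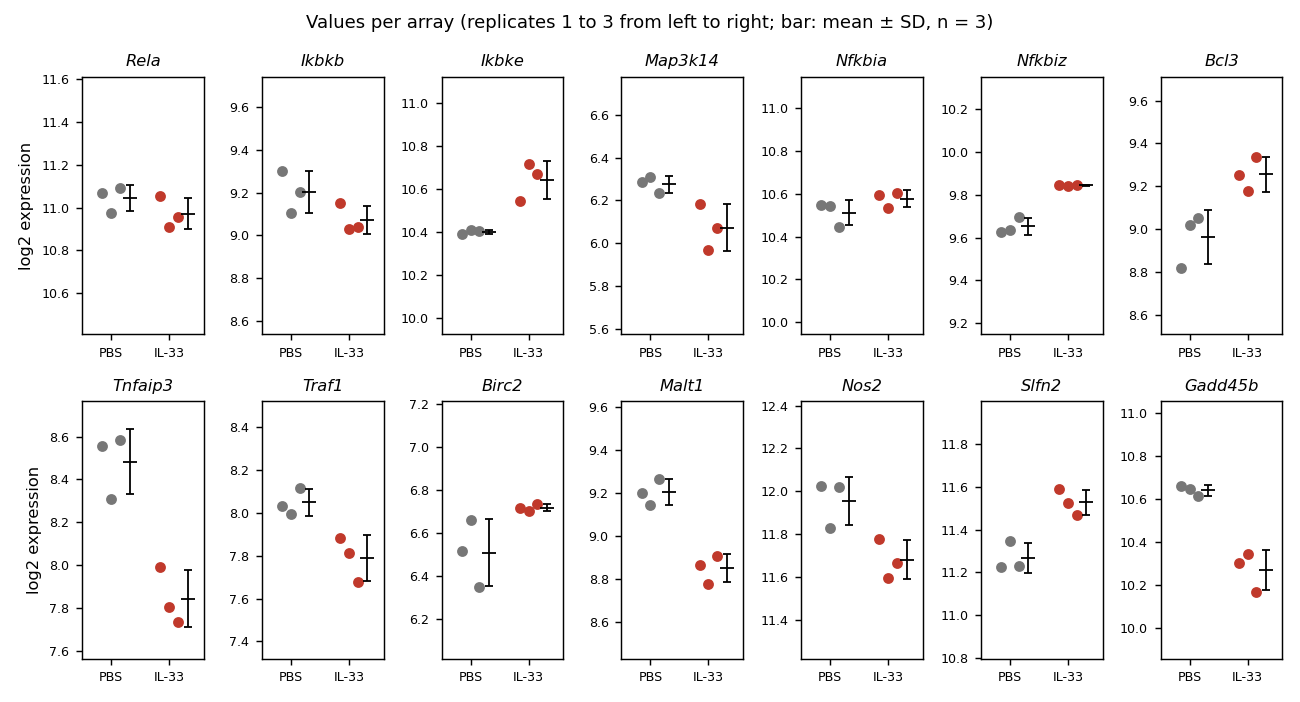
Log2 expression on each of the 6 arrays for the 11 members with an unadjusted p under 0.05 and for Rela, Ikbkb and Nfkbia; points are replicates 1 to 3 from left to right, bars are the mean ± SD (n = 3), and every panel spans the same log2 range. Groups are separate in the 11 members, most widely in Tnfaip3 (gap of 0.318), and overlap in the other 3.

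Whether a member passed depended on the variance model and on which genes were tested with it. With a prior variance trended on level and robust to outliers, 9 of 33 members passed (27.3%), where 4.51% of all genes did: Bcl3, Slfn2, Ikbke and Nfkbiz were higher, and Tnfaip3, Gadd45b, Malt1, Nos2 and Traf1 lower. All 33 members lay at or above the median mean, and the share among such genes was not computed for this prior variance. When only genes whose mean reached the median were tested, 6 members passed (18.2%), where 6.85% of those genes did: Tnfaip3, Gadd45b, Malt1, Ikbke, Nfkbiz and Slfn2. With genes from the 25th percentile upward 3 passed, where 1.78% of genes did. A further quantile normalization gave 2 beside 0.627% of genes, centring on the 75th percentile 1 beside 0.645%, and array weights 1 beside 0.87%. Of the 11 members with an unadjusted p under 0.05, none changed sign in the 15 alternatives, but most of these could not change it. The level filters, the trended prior variance, the replicate block and the settings that use all probe sets leave a member's difference unchanged. As the 11 had separate groups, leaving out 1 array could not turn their sign. Without any 1 array none passed, and the adjusted p of Tnfaip3 then lay between 0.0636 and 0.212 (limma), that of Gadd45b between 0.122 and 0.231 and that of Malt1 between 0.134 and 0.229.

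**Figure D3:**
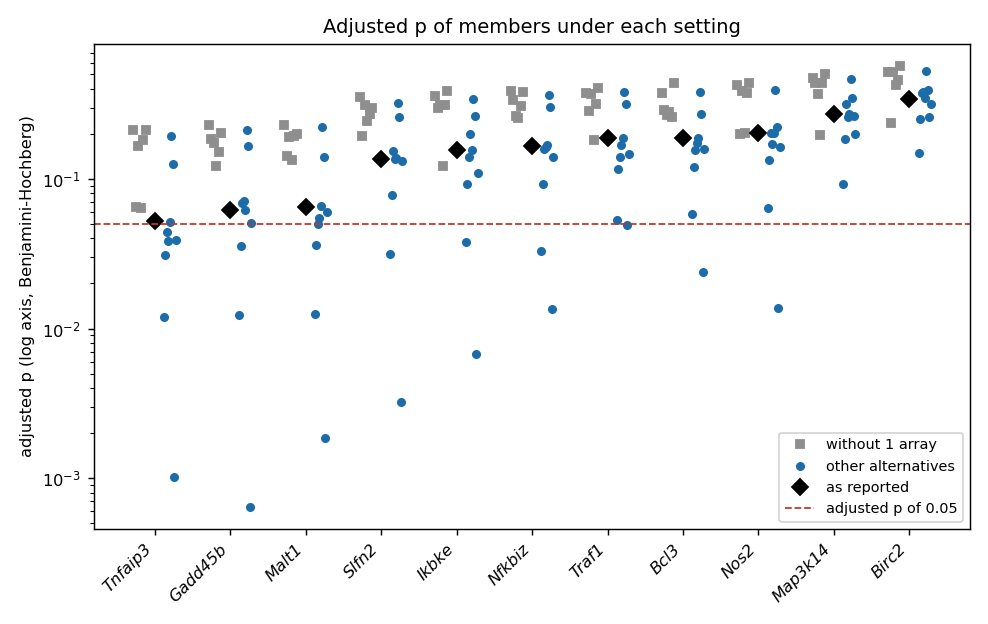
Adjusted p (log axis) of the 11 members with an unadjusted p under 0.05, as reported (diamonds), without 1 array (squares) and under the other 9 alternatives (circles). Tnfaip3, Gadd45b and Malt1 lie just above the line at 0.05 as reported, and no square lies below it.

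The differences were also set out by whether a member had an upstream kB motif. Of 11 measured members with a match, 1 reached an unadjusted p under 0.05, Tnfaip3, where 13.2% of all genes and 17.8% of those at or above the median mean did. The other 10 had log2 differences between -0.06 and 0.15. Among 15 measured members whose windows held no match, 7 reached it, with differences between -0.37 and 0.29. The 7 measured members with no window in the table used here included 3, namely Nfkbiz, Nos2 and Malt1. The median size of the difference was 0.056 with a match and 0.089 without. No test of this contrast was made, and enhancers outside the 250 bases were not searched.

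**Figure D4:**
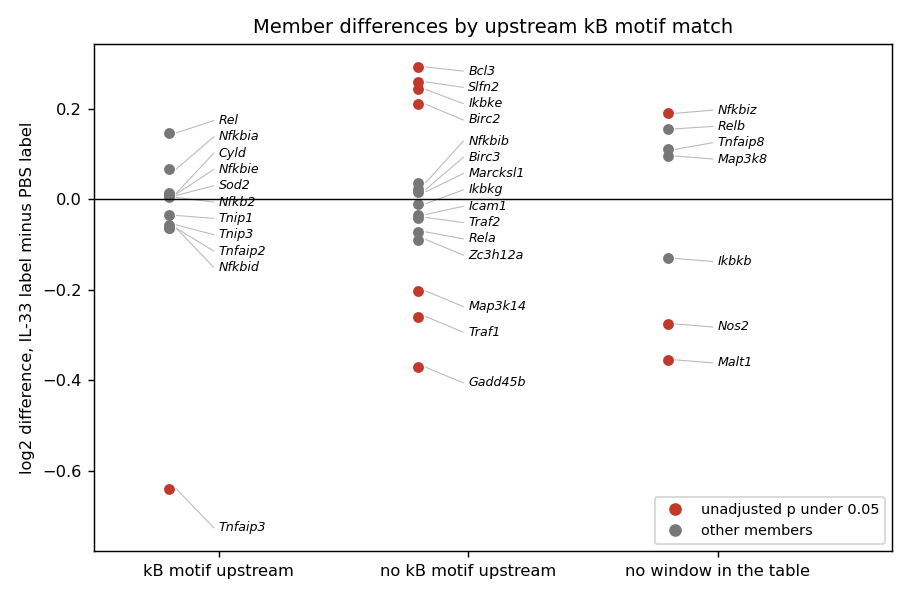
Log2 difference (IL-33 label minus PBS label) of the 33 measured members, by whether the 250 bases before an annotated start held the kB motif; red points have an unadjusted p under 0.05 (limma). With a match, Tnfaip3 lies at -0.64 and the other 10 members between -0.06 and 0.15.

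Genes upstream of these members gave 1 call. Of 36 measured receptors, adaptors and ubiquitin ligases, Tnfrsf1b, which encodes the second TNF receptor, fell 1.64-fold, from 10.75 ± 0.07 to 10.04 ± 0.13 (log2, SD, n = 3 each), with an adjusted p of 0.0206 (limma). The call was lost in 5 of the 6 fits without 1 array, all but that without IL-33 replicate 1, where adjusted p ran up to 0.113 and the difference from -0.75 to -0.64. It was also lost over all probe sets (adjusted p of 0.102, limma) and with the replicate number as a block (0.101). None was called higher, the other 35 missed the threshold where 0.591% of all genes passed, and the list's median was 0.038 (log2). The costimulatory receptor gene Cd40, named after its values were seen, had a difference of 0.29 (adjusted p of 0.0944, limma). Myd88, Irak1 and Traf6, which join receptors of the IL-1 family to the pathway, had differences of 0.02, 0.10 and -0.04 and did not pass. Il1rap and Irak2 of the same list had higher values in the IL-33 arrays, by 0.29 and 0.19, and their groups were separate. Their unadjusted p was 0.00833 and 0.00601, and their adjusted p 0.192 and 0.17 (limma). Myd88, Irak1, Traf6, Il1rap and Irak2 too were picked with their values known. Of the 36, 8 (22.2%) had an unadjusted p under 0.05 (limma), 6 with higher and 2 with lower values in the IL-33 arrays. Over all genes the share was 13.2%, and among those at or above the median mean 17.8%. By direction, 6.42% of all genes were higher and 6.74% lower.

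Other genes induced through NF-kB moved both ways. Of 29 measured, 3 rose, 3 fell and 23 missed the threshold, which 0.591% of all genes passed. The list's median was -0.027 (log2), and 44.8% had an unadjusted p under 0.05, where 13.2% of all genes and 17.8% of those at or above the median mean did. These 13 genes of the list were 8 with lower and 5 with higher values in the IL-33 arrays. Over all genes 6.74% were lower and 6.42% higher at that threshold. Of the 29, 25 lay at or above the median mean. The list was chosen with earlier results of these data known, so these shares are a description. The growth factor gene Csf2 rose 2.23-fold, while the cytokine genes Il1a and Il1b and the gelatinase gene Mmp9 fell, with differences of -0.93, -0.55 and -0.77. The size for Csf2 depended on the probe set. Its log2 difference was 1.16 by that of the highest mean and 0.87 by the mean of all its probe sets. The other 2 that rose, the chemokine gene Cxcl10 and the atypical chemokine receptor gene Ccrl2, had differences of 0.45 and 0.42 and are named after their values were seen. By limma the 6 genes had adjusted p of 0.00685 to 0.0285. Leaving out any 1 array lost the calls of Il1a, Il1b and Ccrl2, with adjusted p up to 0.153. Among these 6 fits Cxcl10 passed only without IL-33 replicate 1, Csf2 only without that array or PBS replicate 2, and Mmp9 in all but the fits without PBS replicate 1 or PBS replicate 3, with adjusted p up to 0.0985, 0.0909 and 0.054. Over the same fits the differences ran from -1.0 to -0.84 for Il1a, -0.593 to -0.49 for Il1b and 0.408 to 0.446 for Ccrl2. For Cxcl10, Csf2 and Mmp9 they ran from 0.428 to 0.459, 1.075 to 1.27 and -0.804 to -0.721. Over all probe sets Mmp9 alone of the 6 passed, and the other 5 had adjusted p of 0.0863 to 0.13 (limma). With the replicate number as a block Il1b, Cxcl10, Csf2 and Ccrl2 were lost, at 0.0927 to 0.124. Tnf, Il6 and Cxcl2 had differences of -0.03, 0.08 and -0.05. Ccl2 and Ccl5 had differences of -0.15 and 0.13, at unadjusted p of 0.0199 and 0.0382 (limma). Larger differences were those of Cd83, Plau, Ier3 and Il1rn, at -0.43, -0.29, -0.27 and -0.23, and of Irf1, at 0.20. Their unadjusted p was 0.00165 to 0.0286 (limma). All of these were chosen after their values were seen, and none passed. The PBS mean of Tnf was 13.07, near the array maxima of 13.62 to 13.66. Array values can compress differences there, which was not tested.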

How the data were processed

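Expression was measured on 6 arrays, 3 labelled PBS and 3 labelled IL-33. The table the authors deposited holds 1 log2 value for each of 41345 probe sets and array, produced by RMA, which corrects background, equalises distributions between arrays and combines probes, per the submitters' processing notes. The sources used here do not give its settings or a genome build. Equal distributions would hide a change shared by most genes. No detection calls were used.

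Of the probe sets, 23521 carried exactly 1 gene symbol, and 1814 carried several and were left out. Where a gene had several probe sets, that of the highest mean over the 6 arrays stood for it, giving 22180 genes. Values were fitted as deposited with limma 3.58.1 in R 4.3.3 (lmFit, eBayes, no covariates), with Benjamini-Hochberg adjustment over all genes and a threshold of 0.05; the fit was tested on simulated data. The members, lists and tests were chosen with earlier results of these data known. All measured members were named; values per array were given for those with an unadjusted p under 0.05 and for Nfkbia, Nfkb1, Rela and Ikbkb where measured. Of the 2 other pathway lists the rule named up to 4 genes that passed, by size of change. Cxcl10, Ccrl2, Cd40, Myd88, Irak1, Traf6, Il1rap, Irak2, Tnf, Il6, Cxcl2, Ccl2, Ccl5, Cd83, Plau, Ier3, Il1rn, Irf1, Cd33, Fcgr1 and Adgre1 fall outside it. They were chosen after their values were seen, and Mrc1 was named for its level. Promoter windows came from RefSeq (GRCm38.p6), matched by symbol. Figures used matplotlib 3.10.9.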

Additional observations from a re-analysis of the deposited data

How the results depend on the processing

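No array gave identical values to another. The labels do not say that replicate numbers mark a shared culture, so the numbers were not taken as pairs. Deviations from the group means correlated at 0.019 to 0.057 between same-numbered arrays. In 4 of 6 cases an array's best match in the other group carried its own number. From 3 arrays a group these values cannot settle whether arrays were paired. With the replicate number as a block (replicate block) 21 genes and 0 members passed, against 131 and 0 without it. The count of genes was 760 among those at or above the median mean, 296 among those at or above the 25th percentile, 1000 with the trended and robust prior variance, 17 over all 41345 probe sets (control probe sets included, since the annotation used here does not mark them) and 15 to 83 without 1 array. Members that passed numbered 6, 3 and 9 in the first 3 of these settings, 2 after a further quantile normalization (Tnfaip3 and Malt1) and 1 both after centring on the 75th percentile and with array weights (Tnfaip3). Without 1 array the class medians ran from -0.006 to 0.047 for subunits and kinases, from -0.024 to -0.005 for inhibitors and feedback genes and from -0.046 to 0.014 for effector targets. The cause of these shifts was not tested, other than that the filters test fewer genes. Of 495 differences of a member under an alternative, 10 had another sign than reported, in 7 members, none of which had an unadjusted p under 0.05. Many of the 495 could not differ from the reported value. The level filters, the trended prior variance, the replicate block and the settings that use all probe sets leave a member's difference unchanged. The precision rests on 3 arrays a group.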
